A study of Mus musculus with 6 samples.

Results

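Cells obtain cholesterol by making it or by taking it up, and they lose it by export, by storage as esters and by conversion to other molecules. The genes described here are 42 genes of this balance, and of the linked synthesis of fatty acids, in sorted mouse megakaryocytes, the polyploid marrow cells from which platelets are shed. The genes were listed by function: 19 enzymes of sterol synthesis, 5 genes that control the SREBP transcription factors, 8 genes of fatty acid synthesis, and 10 genes of sterol export, storage and use. Each gene was taken from the array row that carries its symbol and no other, and where several such rows exist, from the brightest on average over the 6 arrays. This gave 35 of the 42 genes, out of 30063 genes in all. Tm7sf2, Msmo1, Srebf1 and Scd2 are named on rows that carry several symbols, and these, with Acat2, Nr1h2 and Soat1, were not analysed here as members.

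The megakaryocytes came from the bone marrow of female C57 mice carrying an acute myeloid leukaemia (AML) that MLL-AF9, a fusion oncogene, had induced, and from healthy control mice of the same sex and strain. The sort took cells of high side scatter and high CD41 with at least 8N DNA, straight into Trizol, and RNA was measured on an expression array, with 3 arrays per group. Each array is labelled a biological replicate, but the sources used here do not give the animals' age, how MLL-AF9 was introduced or whether animals were pooled, and p-values therefore reflect only how far these samples spread. Values are log2 RMA expression, differences are AML minus control, ± is the SD over n = 3 arrays, and a gene was called at a limma adjusted p under 0.05 over all genes.

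SREBP proteins are membrane-bound transcription factors. When sterols are scarce, SCAP carries them from the endoplasmic reticulum to the Golgi, where they are cut, and the released part switches on the genes of sterol and fatty acid synthesis. INSIG proteins hold SCAP back when sterols are plentiful. Liver X receptors (LXR) do the opposite job for sterols, though not for fatty acids. Bound by oxidised sterols, they switch on genes of sterol export, such as Abca1 and Abcg1, and the ubiquitin ligase gene Mylip.

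In the sorts from AML mice, some enzymes of sterol synthesis rose, and most of the measured genes of sterol export, storage and use fell. Of the 35 measured members, 7 rose and 7 fell, where 4.49% of all genes rose and 6.25% fell (10.7% in either direction). The rises were 6 of 16 sterol synthesis genes and Fasn, and the falls were 6 of 8 genes of sterol export, storage and use and Scd1. The largest rise was that of Fdps, 2.93-fold, and the largest fall that of Cyp11a1, 6.03-fold. None of the 4 measured genes of SREBP control was called. The median difference over all genes was itself above 0, at +0.11, and 68.8% of all genes had a difference above 0. Over the 13248 genes above the receptor level, a limit for dim values set out below, the median difference was +0.01. With each array centred on its median, the shift over all genes was -0.01. Then 3 members rose and 7 fell, where 505 of all 30063 genes rose and 2712 fell.

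**Figure D1:**
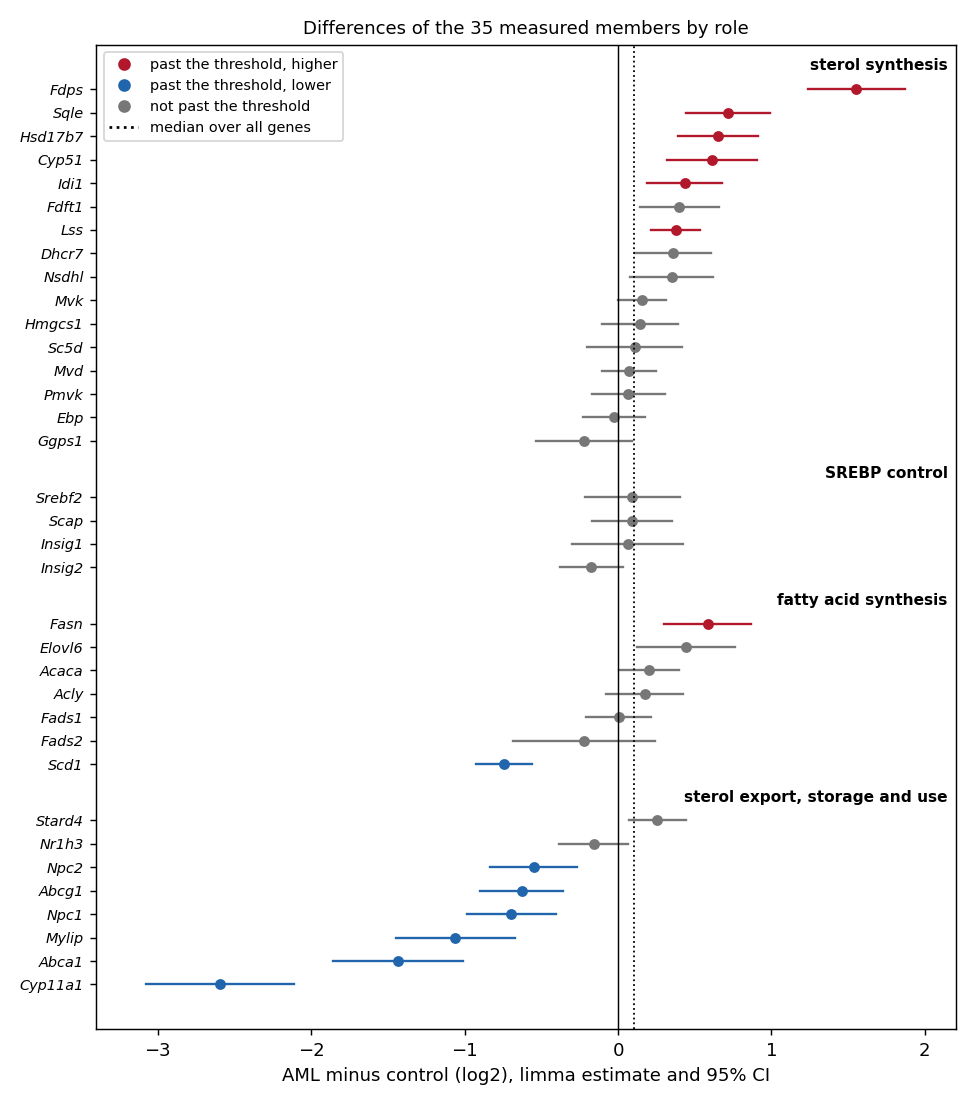
AML minus control difference (log2, x axis) of each of the 35 measured members, ordered by role, with limma's 95% confidence interval. Sterol synthesis genes lie mostly to the right, up to +1.55 for Fdps, genes of sterol export, storage and use mostly to the left, down to -2.59 for Cyp11a1, and the dotted line marks the median over all genes, +0.11.

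The sorts carried strong megakaryocyte signal in both groups, and signal of other marrow cells as well. Of 12 measured megakaryocyte markers, 0 were called (limma, 2 at an unadjusted p under 0.05, as were 32.8% of all genes), and Pf4, the platelet factor 4 gene, stood at 11.98 ± 0.22 in AML against 12.09 ± 0.12. Of the markers of other cells, those that fell in AML were 9 of 10 of neutrophils, 11 of 14 of monocytes and macrophages, 5 of 10 of basophils and mast cells, 4 of 6 of eosinophils, 4 of 8 of dendritic cells, 4 of 7 of the B lineage and 3 of 6 of erythroid cells. Of 6 granulocyte-monocyte progenitor markers 2 were higher, Ctsg and Gfi1. Over all genes, 6.25% fell and 4.49% rose. Prg2, the eosinophil major basic protein gene, was as bright as 12.30 ± 0.19 in AML and 12.74 ± 0.08 in control. In such bulk RNA, fewer cells of a type and less RNA per cell cannot be told apart. Dim values were judged against the genes of odorant and vomeronasal receptors, whose means had a 95th percentile of 5.51, called the receptor level here. Means of 33 of the 35 members lay above it.

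Sterol synthesis starts in the cytosol with acetyl units and runs through mevalonate to the isoprenoid units from which squalene is built. The genes of the first steps did not pass the threshold. Hmgcs1, which makes the precursor HMG-CoA, read 6.08, 5.96 and 6.33 on AML arrays 1 to 3 and 6.01, 5.94 and 6.0 on control arrays 1 to 3, with a difference of +0.14 (95% CI -0.10 to 0.39, adjusted p = 0.353). Its groups overlapped. Mvk, mevalonate kinase, read 6.09, 6.12 and 6.07 against 5.94, 5.90 and 5.98, so that the groups did not overlap, and its difference of +0.15 had an adjusted p of 0.159. Pmvk and Mvd, the kinase and the decarboxylase that follow, differed by +0.07 each (adjusted p 0.654 and 0.513). Idi1, the isomerase that makes the active isoprenoid unit, read 5.17, 5.20 and 4.89 against 4.73, 4.61 and 4.62. It was called higher by +0.43 (adjusted p = 0.0425). Both of its means, 5.09 ± 0.18 and 4.65 ± 0.07, were under the receptor level, and no fold is given.

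Fdps, farnesyl diphosphate synthase, joins isoprenoid units into farnesyl diphosphate, the point at which the path branches to sterols and to lipid anchors of proteins. It read 9.13, 9.13 and 8.66 on the AML arrays and 7.40, 7.44 and 7.43 on the control arrays. All AML arrays were above all control arrays by more than 1 log2 unit, and the control arrays were nearly equal. The difference was +1.55 (SE 0.13, 95% CI 1.24 to 1.87), or 2.93-fold, with an adjusted p of 0.00133, and it lay at the 99.8th percentile of the differences of all genes. It was called under all 16 alternatives, with differences from +1.43 to +1.71. Ggps1, which extends farnesyl to geranylgeranyl diphosphate on the side branch to protein anchors, pointed the other way, at 5.65 ± 0.17 against 5.87 ± 0.20 (difference -0.22, 95% CI -0.53 to 0.09, adjusted p = 0.269). Fdft1, squalene synthase, takes farnesyl diphosphate into the sterol branch. It read 6.55, 6.48 and 6.27 against 6.01, 5.90 and 6.18, without overlap, and just missed the threshold at +0.40 (adjusted p = 0.0600). It was called in 6 of 16 alternatives.

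After squalene, 4 further genes were called. Sqle, squalene epoxidase, a rate-limiting enzyme of the sterol branch, read 6.26, 6.55 and 6.34 in AML and 5.47, 5.77 and 5.76 in control. The groups did not overlap, and the difference was +0.72 (SE 0.12, 95% CI 0.44 to 0.99), or 1.64-fold (adjusted p = 0.0131), called under all 16 alternatives. Lss, lanosterol synthase, which closes the sterol rings, read 5.06, 5.09 and 5.01 against 4.64, 4.71 and 4.69 (difference +0.38, adjusted p = 0.0177). Both means were under the receptor level, and no fold is given. Cyp51, which removes a methyl group from lanosterol, read 6.91, 7.24 and 6.93 against 6.31, 6.33 and 6.61, a difference of +0.61 (SE 0.12), or 1.53-fold (adjusted p = 0.0272). Hsd17b7, a reductase that acts during demethylation of the sterol ring, read 6.11, 6.03 and 5.75 against 5.21, 5.34 and 5.38. Its control values were under the receptor level, and against that level its AML mean was 1.37-fold higher. The fitted difference of Hsd17b7 was +0.65 (95% CI 0.39 to 0.91, adjusted p = 0.0151).

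Other enzymes of the late steps were not called. Nsdhl, which works beside Hsd17b7, and Dhcr7, the reductase of the last step to cholesterol, stood at 6.80 ± 0.10 against 6.45 ± 0.20 and at 6.15 ± 0.18 against 5.79 ± 0.06. Neither overlapped between the groups, with adjusted p of 0.0910 and 0.0704. Ebp, the sterol isomerase, and Sc5d, a sterol desaturase, differed by -0.03 and +0.11 with overlapping groups (adjusted p 0.828 and 0.563). Thus in 10 of the 16 sterol synthesis genes all AML values lay above all control values, where 28.2% of all genes did so (41.3% did not overlap in either direction). At an unadjusted p under 0.05 there were 9, all higher in AML, where 32.8% of all genes passed that limit, 21% higher and 11.8% lower. The median difference over the 16 genes was +0.35, or +0.25 relative to the median over all genes. Over all genes above the receptor level the median was +0.01. AML array 3 held the lowest AML value in 12 of the 16 genes and the highest in 1.

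The calls outside Fdps and Sqle did not hold on leaving out some of the arrays. The differences of Cyp51, Hsd17b7, Idi1 and Lss stayed above 0 in every fit that held them, the lowest being +0.23, of Lss. Over all genes, 3230 were called with all arrays and 967 to 3606 with 1 array left out. Without AML array 2 or control array 2 the calls of Cyp51, Hsd17b7, Idi1 and Lss were lost and 2 of the 16 genes rose (adjusted p of the lost calls 0.0542 to 0.154). Without control array 3 those of Hsd17b7, Idi1 and Lss were lost and 3 rose (adjusted p 0.0534 to 0.139). Cyp51 and Idi1 also lost their calls without control array 1 (adjusted p 0.0646 and 0.0620) and Idi1 and Lss without AML array 1 (adjusted p 0.105 and 0.0553). With median centring 3 rose, where 505 of all 30063 genes did, and Cyp51, Idi1 and Lss were lost (adjusted p 0.0611 to 0.106). Idi1 and Lss were lost with quantile normalization and cyclic loess too (adjusted p 0.0702 to 0.153). Of the 6 granulocyte-monocyte progenitor markers, Ctsg and Gfi1 rose in the same AML sorts, where 4.49% of all genes rose. Mpo, Elane, Prtn3 and Ms4a3 were not called (adjusted p 0.0889 to 0.824). The summed level of the 6 was 12.13 to 12.40 (log2) in AML against 11.69 to 12.08 in control, and their part in the sterol synthesis values was not tested.

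**Figure D2:**
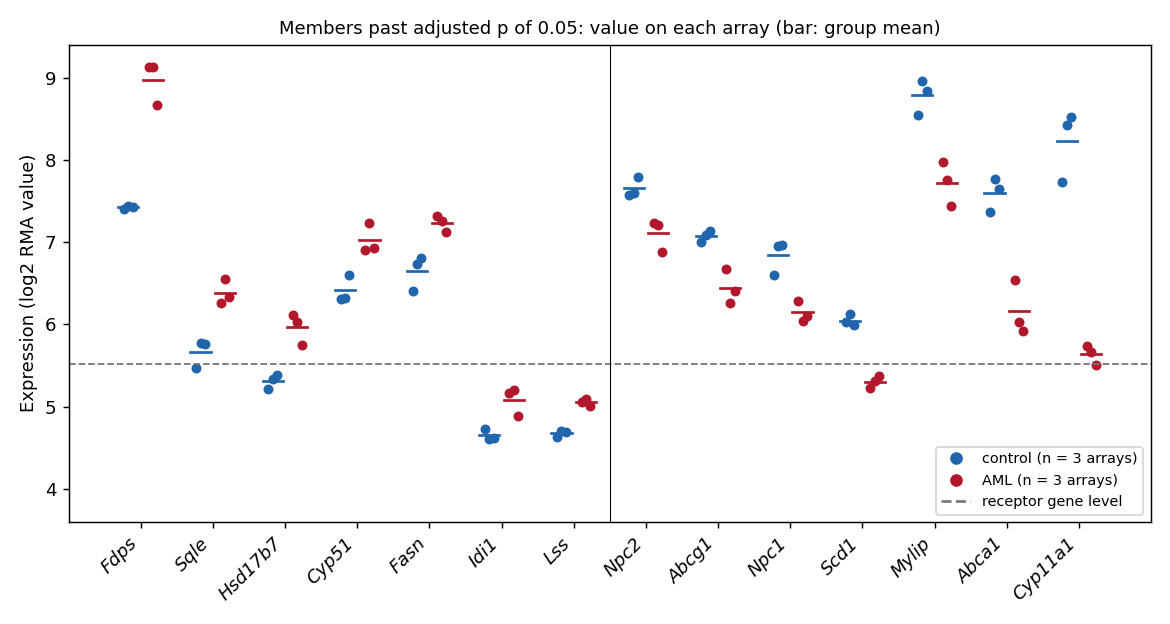
Log2 RMA value on each array (points) and group mean (bars) of the 14 called members, control in blue and AML in red, 3 arrays each, with rises to the left of the vertical line and falls to its right. The dashed line is the receptor level, 5.51, and Idi1 and Lss lie wholly below it.

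SREBP proteins bind sterol regulatory elements in promoters, together with the factor NF-Y, which binds the CCAAT box. The promoters of 27 of the 35 members were held in a RefSeq table (build GRCm38.p6), from 250 bases before to 50 after the start of transcription, and those of Fdps and Sqle were not among them. These were searched on both strands for the element consensus TCACNCCAC, for CCAAT, for the E-box CACGTG and for the spaced direct repeat of AGGTCA to which LXR binds. CCAAT was found in the promoter of 13 of 13 sterol synthesis genes with an entry, and in 41.1% of all 27025 genes with an entry. Of the 27 members it was found in 21, with 5 of 5 that rose and 3 of 4 that fell. TCACNCCAC was found in 1 member, Hmgcs1, and in 1.44% of all genes, and CACGTG in 6 of the 27 members and in 8.09% of all genes. The LXR repeat was found in 0 of the 27 members and in 4 of all genes. These matches describe letters, not bound sites. Only exact letters were counted, so an element with 1 letter changed was missed. The LXR repeat matched so few genes that its absence from the 27 members says nothing of LXR binding. The promoters below, with the matched letters in capitals, are those of Cyp51 (chr5:4104648-4104947, minus strand), Hsd17b7 (chr1:169969156-169969455, minus strand) and Fasn (chr11:120824498-120824797, minus strand), which rose, and of Hmgcs1 (chr13:119690101-119690400, plus strand), which holds the element consensus and was not called.
Cyp51: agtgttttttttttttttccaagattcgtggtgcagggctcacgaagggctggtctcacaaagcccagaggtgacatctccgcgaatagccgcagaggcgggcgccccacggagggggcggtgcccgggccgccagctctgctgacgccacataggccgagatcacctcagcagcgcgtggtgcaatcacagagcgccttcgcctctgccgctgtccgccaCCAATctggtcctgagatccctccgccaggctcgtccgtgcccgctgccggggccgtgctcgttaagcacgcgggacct
Hsd17b7: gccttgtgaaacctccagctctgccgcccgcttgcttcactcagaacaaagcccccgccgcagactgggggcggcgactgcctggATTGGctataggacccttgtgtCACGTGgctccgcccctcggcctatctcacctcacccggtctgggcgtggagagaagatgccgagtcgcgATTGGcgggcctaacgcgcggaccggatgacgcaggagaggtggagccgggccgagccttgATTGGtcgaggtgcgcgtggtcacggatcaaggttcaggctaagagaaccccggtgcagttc
Fasn: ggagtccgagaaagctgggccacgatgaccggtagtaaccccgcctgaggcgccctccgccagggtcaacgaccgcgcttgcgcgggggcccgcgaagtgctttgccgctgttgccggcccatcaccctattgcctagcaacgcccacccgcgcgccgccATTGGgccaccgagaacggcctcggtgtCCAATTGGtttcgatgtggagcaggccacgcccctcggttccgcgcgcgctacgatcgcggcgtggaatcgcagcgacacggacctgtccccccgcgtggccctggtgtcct
Hmgcs1: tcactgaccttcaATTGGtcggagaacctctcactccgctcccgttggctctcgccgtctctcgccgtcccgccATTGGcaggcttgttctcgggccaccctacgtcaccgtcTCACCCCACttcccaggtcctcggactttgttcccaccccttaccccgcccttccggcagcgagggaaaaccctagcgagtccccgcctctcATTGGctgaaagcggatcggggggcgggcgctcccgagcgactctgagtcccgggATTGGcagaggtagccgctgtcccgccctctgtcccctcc
Cyp51 has a single CCAAT box starting 29 bases before its start, and Hsd17b7 has an E-box 143 bases before its start beside its CCAAT boxes. In Fasn, 2 CCAAT boxes on opposite strands overlap. In Hmgcs1 the element starts 137 bases before the start.

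The genes that control SREBP were measured in both groups at well-detected levels and were not called. Srebf2, which encodes the SREBP of sterol synthesis, read 7.34, 7.28 and 6.99 in AML and 6.90, 7.22 and 7.22 in control, with a difference of +0.09 (95% CI -0.22 to 0.40, adjusted p = 0.628). Insig1, itself a known target of SREBP, read 6.91, 6.86 and 6.41 against 6.50, 6.65 and 6.84, with a difference of +0.06 (95% CI -0.30 to 0.43, adjusted p = 0.784). The groups overlapped in both genes, with AML array 3 lowest among the AML arrays and control array 1 lowest among the controls. Scap differed by +0.09 (adjusted p = 0.568). Insig2 lay lower on every AML array, at 5.88 ± 0.13 against 6.06 ± 0.06, but its difference of -0.17 had an adjusted p of 0.208. At an unadjusted p under 0.05, limma found 0 of the 4, where 32.8% of all genes passed that limit. Of 8 measured further regulators, 1 rose, 1 fell and 6 were not called, where 4.49% of all genes rose and 6.25% fell. Usp20, a deubiquitinase, rose by +0.43 (adjusted p = 0.0126). Fbxw7, a ubiquitin ligase component that marks nuclear SREBP for breakdown, fell by 0.34 to an AML mean under the receptor level (adjusted p = 0.0415). Of 6 measured further genes of sterol synthesis and uptake, 0 were called (2 at an unadjusted p under 0.05, near the 32.8% of all genes).

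Of the 7 fatty acid synthesis genes, 1 rose, 1 fell and 5 were not called, where 4.49% of all genes rose and 6.25% fell. Acly, which makes cytosolic acetyl-CoA from citrate, and Acaca, acetyl-CoA carboxylase, were not called, with differences of +0.17 and +0.20 (adjusted p 0.273 and 0.145). Fasn, the fatty acid synthase, read 7.31, 7.26 and 7.13 in AML and 6.41, 6.73 and 6.81 in control. The groups did not overlap, and Fasn rose by +0.58 (SE 0.12, 95% CI 0.30 to 0.87), or 1.5-fold (adjusted p = 0.0273). Its call was lost with median centring (adjusted p = 0.0805) and on leaving out either of AML arrays 1 and 2 or either of control arrays 2 and 3 (adjusted p 0.0526 to 0.0846). Elovl6, which lengthens the product of Fasn, stood at 6.93 ± 0.14 against 6.49 ± 0.24, without overlap (adjusted p = 0.0789).

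Scd1, the stearoyl-CoA desaturase that makes monounsaturated fatty acids, went the other way. It read 5.23, 5.31 and 5.37 in AML and 6.02, 6.12 and 5.99 in control, with no overlap. Its AML values were under the receptor level, and that level was 1.45-fold lower than its control mean. The fitted difference was -0.74 (SE 0.08, adjusted p = 0.00232). Scd1 was called under all 16 alternatives, but it has 2 rows. The dimmer one, at 4.34 in AML and 4.21 in control, lay under the receptor level, and with the mean of both rows the fall was 0.31 (adjusted p = 0.0480). Fads1 and Fads2, the desaturases of polyunsaturated fatty acids, differed by 0.00 and -0.22 (adjusted p 0.981 and 0.431). Fads2 read 7.24, 6.57 and 7.28 in AML, where array 2 stood apart, against 7.25, 7.11 and 7.39. A dimmer row of Fads2, also above the receptor level, read 6.78, 6.61 and 7.21 in AML and 6.66, 6.81 and 6.97 in control. Its difference was +0.05, and AML array 2 lay near AML array 1. On AML array 2 the megakaryocyte markers also stood lowest among the AML arrays, with a median of 8.85 against 9.46 and 9.62 on the others. On control arrays 1 to 3 that median was 9.22, 8.85 and 8.86, so control arrays 2 and 3 were as low. The part of these markers in the Fads2 value was not tested. The median difference over the 7 genes was +0.17, against +0.11 over all genes and +0.01 over genes above the receptor level.

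Of 19 measured further genes of fatty acid synthesis, elongation and activation, 0 rose and 2 fell, a share near the 10.7% of all genes called, and 8 had an unadjusted p under 0.05, where 32.8% of all genes did. Acsl4, which activates long polyunsaturated fatty acids, fell 2.01-fold from 8.26 ± 0.16 to 7.25 ± 0.06 (adjusted p = 0.00197). Elovl5, which lengthens polyunsaturated fatty acids, fell 1.5-fold from 8.57 ± 0.13 to 7.98 ± 0.10 (adjusted p = 0.0122).

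The export genes Abca1 and Abcg1 fell. Abca1, the transporter that loads cholesterol onto apolipoprotein A-I, read 6.54, 6.03 and 5.92 in AML and 7.37, 7.77 and 7.65 in control. The highest AML value was below the lowest control value by more than the spread within each group, and Abca1 fell by 1.43 (SE 0.18, 95% CI -1.86 to -1.01), or 2.70-fold (adjusted p = 0.00499), under all 16 alternatives. Abcg1, which passes cholesterol to high-density lipoprotein, read 6.67, 6.26 and 6.41 against 7.0, 7.08 and 7.14 and fell 1.54-fold (difference -0.63, SE 0.11, adjusted p = 0.0188). Mylip, the ubiquitin ligase that sends lipoprotein receptors to breakdown, read 7.98, 7.76 and 7.43 against 8.55, 8.96 and 8.84 and fell 2.08-fold (difference -1.06, SE 0.16, adjusted p = 0.0110). These genes are known LXR targets, while Nr1h3, the gene of LXR alpha, stood at 7.21 ± 0.16 against 7.37 ± 0.04 (difference -0.16, 95% CI -0.38 to 0.07, adjusted p = 0.267). Of its arrays, AML array 1, at 7.38, reached into the control range.

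The promoters of the 2 members of this group with the largest falls after Cyp11a1, Abca1 (chr4:53159846-53160145, minus strand) and Mylip (chr13:45389492-45389791, plus strand), are printed to the same scheme.
Abca1: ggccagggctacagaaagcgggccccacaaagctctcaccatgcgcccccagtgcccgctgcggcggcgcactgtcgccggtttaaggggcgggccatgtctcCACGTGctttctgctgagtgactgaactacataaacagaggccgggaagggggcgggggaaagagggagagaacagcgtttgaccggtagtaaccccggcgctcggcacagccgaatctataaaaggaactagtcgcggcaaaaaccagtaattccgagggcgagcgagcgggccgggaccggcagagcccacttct
Mylip: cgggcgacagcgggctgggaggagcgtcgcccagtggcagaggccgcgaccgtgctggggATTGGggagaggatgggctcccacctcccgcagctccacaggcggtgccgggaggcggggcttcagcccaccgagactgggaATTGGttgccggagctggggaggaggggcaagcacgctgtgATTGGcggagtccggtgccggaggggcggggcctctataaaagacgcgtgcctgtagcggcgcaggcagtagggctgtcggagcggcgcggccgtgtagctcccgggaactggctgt
Abca1 has an E-box starting 147 bases before its start and no CCAAT box in this window. Mylip has CCAAT boxes on the opposite strand and no E-box.

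Genes of sterol release from the lysosome also fell. Npc2, the soluble carrier that picks up cholesterol there, read 7.24, 7.21 and 6.87 in AML and 7.57, 7.60 and 7.79 in control (difference -0.55, SE 0.12, 1.46-fold, adjusted p = 0.0327). Npc1, the membrane protein that receives it, read 6.29, 6.04 and 6.11 against 6.61, 6.95 and 6.97 (difference -0.70, SE 0.12, 1.62-fold, adjusted p = 0.0172). In both genes every AML array lay under every control array. Stard4, a carrier of sterol between membranes and a known SREBP target, was the single member of the group with a difference above 0, at 6.55 ± 0.09 against 6.29 ± 0.06, without overlap (+0.25, adjusted p = 0.0811).

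Cyp11a1, the mitochondrial enzyme that cleaves the cholesterol side chain and so opens steroid hormone synthesis, had the largest difference of all members. It read 5.74, 5.66 and 5.51 in AML, close to the receptor level, and 7.74, 8.42 and 8.53 in control. Every control array stood far above every AML array, with control array 1 the lowest of its group, and Cyp11a1 fell by 2.59 (SE 0.20, 95% CI -3.07 to -2.11), or 6.03-fold (adjusted p = 0.000965). A dimmer row of the gene read 4.19 in AML and 4.08 in control, under the receptor level, and with the mean of both rows the fall was 1.24. Of 11 measured other genes of steroid hormone synthesis, 10 had means under the receptor level, where a fall could hardly show. Of the 11, 0 fell and 2 were called higher, where 6.25% of all genes fell and 4.49% rose. All 11 differences were above 0, as were 68.8% of those of all genes. Hsd17b1, the exception in level, which reduces oestrone to oestradiol, rose from 6.17 ± 0.04 to 6.67 ± 0.08 (adjusted p = 0.00964), and Hsd3b6, under the receptor level, was called higher as well.

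Of the 8 measured genes of sterol export, storage and use, 6 thus fell and 0 rose, where 6.25% of all genes fell and, of genes above the receptor level, 12% fell and 4.98% rose. At an unadjusted p under 0.05 there were 7, with Stard4 alone higher, where 32.8% of all genes passed that limit. The median difference was -0.66, or -0.77 relative to all genes, whose median was +0.01 above the receptor level. Of the 6, Abca1 and Cyp11a1 were called whichever array was left out. There were 3 calls without AML array 2, when Abcg1, Npc1 and Npc2 were lost (adjusted p 0.0517 to 0.0649), and 2 without control array 2 or control array 3, when Mylip was lost as well (adjusted p 0.0536 to 0.118). Npc2 was also lost without AML array 1 (adjusted p = 0.0507) and without control array 1 (adjusted p = 0.0538).

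The falls went with falls of markers of other marrow cells. Over all genes 6.25% fell, and of genes above the receptor level 12%. Of 14 monocyte and macrophage markers 11 fell, among them Mrc1, the mannose receptor gene, from 8.82 ± 0.08 to 6.86 ± 0.37, and Csf1r from 7.72 ± 0.17 to 6.56 ± 0.18. Their summed level was 12.52 to 12.96 (log2) in AML and 12.95 to 13.11 in control, carried by Ly6c2, which was not called. Of 10 basophil and mast cell markers 5 fell, among them Mcpt8, a basophil protease gene, from 10.48 ± 0.16 to 8.52 ± 0.13, and Fcer1a, of the IgE receptor, from 7.04 ± 0.25 to 4.5 ± 0.31, under the receptor level. Their summed level was 10.74 to 11.16 in AML and 12.18 to 12.57 in control. Cpa3, a mast cell protease gene, stood at 9.04 ± 0.30 against 9.27 ± 0.34 (adjusted p = 0.447). The summed level of the neutrophil markers was 12.85 to 13.20 in AML and 14.45 to 14.68 in control. The part of these cells in the values of Abca1, Abcg1, Mylip, Npc1, Npc2, Scd1 and Cyp11a1 was not tested.

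**Figure D3:**
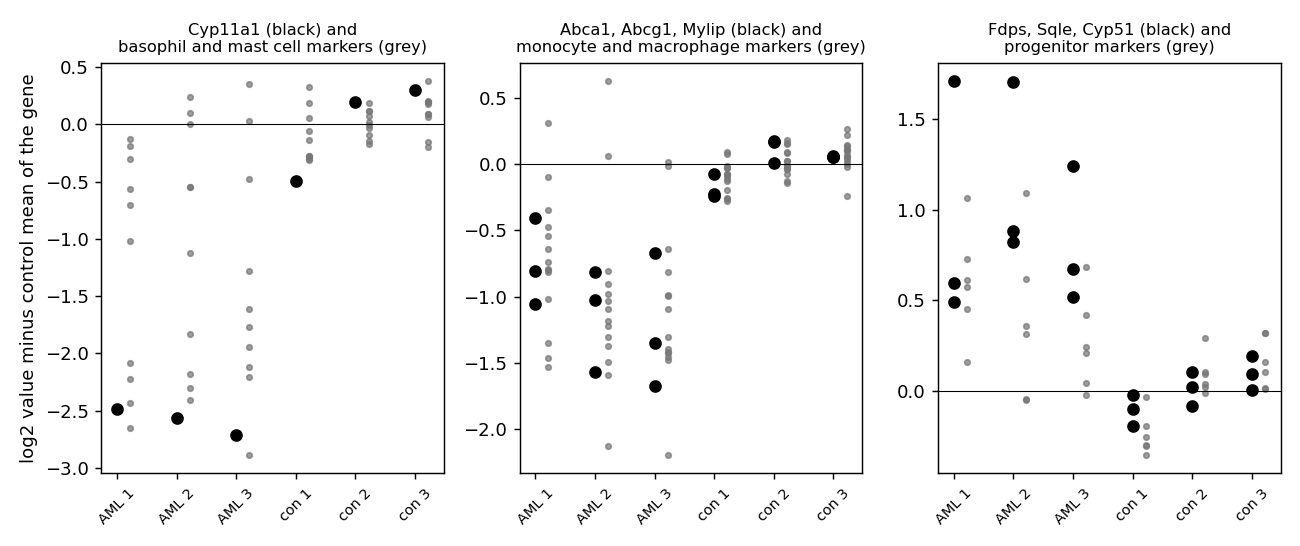
Log2 value minus the gene's control mean on each of the 6 arrays, with members in black and marker genes in grey: Cyp11a1 with 10 basophil and mast cell markers, Abca1, Abcg1 and Mylip with 14 monocyte and macrophage markers, and Fdps, Sqle and Cyp51 with 6 progenitor markers. Cyp11a1 lies at the low end of its markers on the AML arrays, and Abca1, Abcg1 and Mylip lie within the range of theirs. Fdps lies above all 6 progenitor markers on each AML array, while Sqle and Cyp51 lie within the range of these markers.

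Of 19 measured further genes of sterol handling and the LXR response, 17 were not called, 0 rose and 2 fell, where 6.25% of all genes and 12% of genes above the receptor level fell. At an unadjusted p under 0.05 there were 9, where 32.8% of all genes passed, and in 11 all AML values lay under all control values, where 13.1% of all genes did so. Cyp27a1, which makes an oxidised sterol that activates LXR, fell from 6.39 ± 0.18 to 5.42 ± 0.14 (adjusted p = 0.00409), and Nceh1, which frees cholesterol from its esters, from 6.05 ± 0.09 to 5.49 ± 0.27 (adjusted p = 0.0497), both to just under the receptor level. Apoe, the apolipoprotein E gene, also an LXR target, stood at 8.40 ± 0.22 against 8.84 ± 0.04 (adjusted p = 0.0545). The median difference of this list was -0.26.

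**Figure D4:**
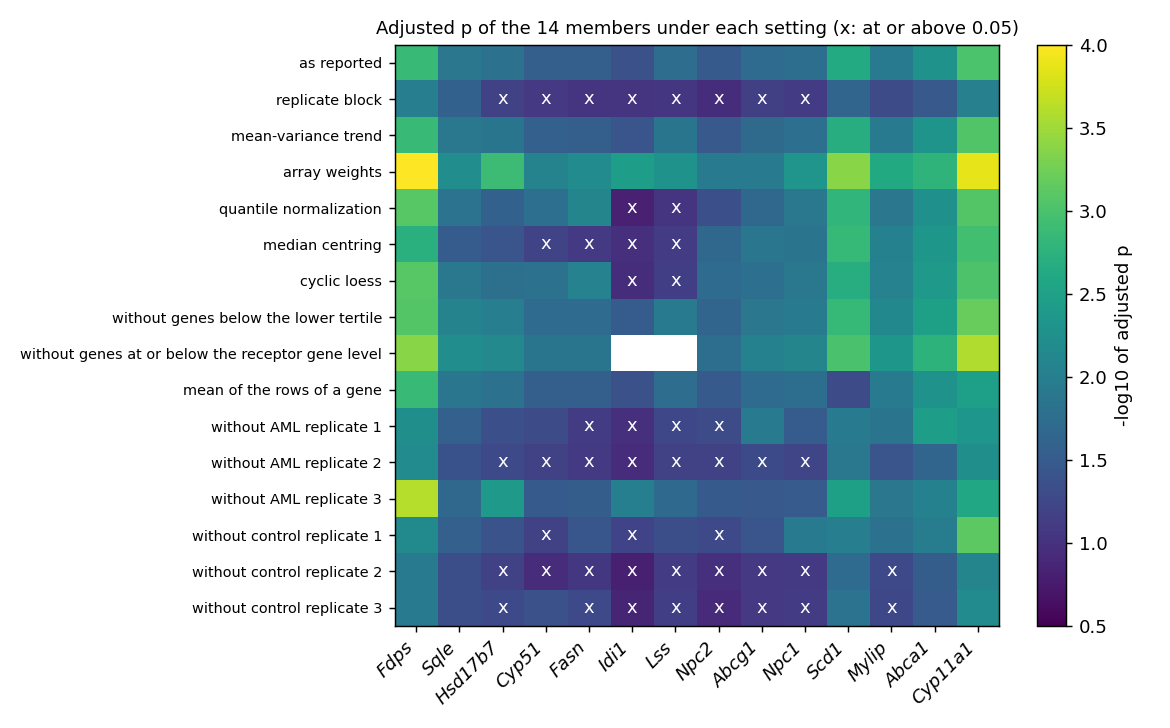
Adjusted p (colour, as -log10) of the 14 called members (columns) in the analysis as reported and under 15 alternatives (rows), with x where it was 0.05 or more and white where the gene was filtered out. Fdps, Sqle, Scd1, Abca1 and Cyp11a1 have no x in any row.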

How the data were processed

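Total RNA of megakaryocytes sorted from AML and healthy control mice, 3 samples each, was labelled as biotinylated cDNA from 250 ng and hybridised to an Affymetrix array, per the labels' protocols. The authors deposited log2 expression values made with RMA, per the submitters' processing notes. The build behind the array design was not found in those sources. RMA gives arrays like distributions, which can hide a shift common to most genes. Array medians over genes were 5.29 to 5.32 in AML and 5.16 to 5.24 in control.

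Of 72688 rows, 30604 carry 1 gene symbol in the platform's annotation. Symbols were updated through RefSeq (GRCm38.p6, names only), and the brightest row of each of 30063 genes was kept. All genes were fitted with limma (lmFit and eBayes, no filter, two-sided, Benjamini-Hochberg adjustment over all genes, threshold 0.05), a script tested on simulated data. The members, gene lists and tests were chosen with earlier results of these data known. All members were accounted for. Those called, and Sqle, Insig1, Srebf2, Fasn, Scd1, Abca1 and Cyp11a1 whatever their result, were given with every array. Of further lists, up to 4 called genes with the smallest p were named, and of marker lists some of the brighter genes. Other genes named, some markers among them, were picked with their values in view. The number of arrays limits the precision. Replicate numbers were checked for pairing: deviations of same-numbered arrays correlated at -0.396, 0.153 and -0.294 across genes, so the arrays were not paired. The alternatives were array weights, a mean-variance trend, the replicate number as a block, median centring, cyclic loess, quantile normalization, 2 filters on dim genes, averaging the rows of a gene, a 1.5-fold minimum, and leaving out each array in turn. Naming rows with several symbols of 1 gene number was added after seeing the data. The fits used limma 3.58.1 in R 4.3.3, and tables and figures were made in Python 3.11.15 with matplotlib 3.10.9, numpy 2.4.6 and pandas 2.3.3.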

Additional observations from a re-analysis of the deposited data

How the results depend on the processing

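Fdps, Sqle, Scd1, Abca1 and Cyp11a1 were called under all 16 alternatives. With the replicate block, 1067 of all genes, 2 members higher (both of sterol synthesis, so 2 of that list and 0 of fatty acid synthesis) and 4 lower (3 of them in export, storage and use) were called, against 3230, 7 and 7. With array weights, 7853 of all genes were called, 13 members higher, 3 of them in fatty acid synthesis and 1 in export. With median centring, 3 members were higher, 3 of them in sterol synthesis and 0 in fatty acid synthesis. Of all genes 505 were then higher and 2712 lower. With the 1.5-fold minimum, 1565 of all genes and 4 members higher remained in the count, 0 of them in fatty acid synthesis. The median of sterol synthesis was +0.27 with quantile normalization, +0.23 with median centring, +0.26 with cyclic loess and +0.25 without genes at or below the receptor level. The export median was -0.78 with median centring. Leaving out 1 array gave 967 to 3606 genes, 2 to 9 members higher, 3 to 7 lower, 2 to 8 sterol synthesis genes higher, 0 to 2 fatty acid genes higher, 2 to 6 export genes lower, and medians of +0.30 to +0.38 for sterol synthesis and -0.75 to -0.62 for export. The uncalled differences of Insig1 and Srebf2 changed sign: with median centring they were -0.0584 and -0.0285, and over the fits that leave out 1 array they ran from -0.0289 to 0.22 for Insig1 (below 0 when AML array 1, AML array 2 or control array 1 was left out) and from -0.014 to 0.20 for Srebf2 (below 0 when control array 1 was left out). The cause was not tested.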

Other observations

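Msmo1, the oxidase that starts removal of the methyl groups from the sterol ring, lies on a row named with its current and an older symbol of the same gene and so outside the rule for members. It read 5.94, 6.08 and 5.55 on the AML arrays and 5.53, 5.45 and 5.83 on the control arrays. The groups overlapped, and its difference of +0.25 had an adjusted p of 0.289 when such rows were named too.

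Rusc1, the gene next to Fdps on its chromosome in RefSeq, was called higher by +0.27 (6.97 ± 0.02 against 6.70 ± 0.03, adjusted p = 0.0418), against +1.55 for Fdps, and Pklr, on the other side, differed by +0.14 (adjusted p = 0.300). Scd3 and Scd4, paralogs of Scd1, had means under the receptor level in both groups and were not called (adjusted p 0.351 and 0.197). Over all 35 members, AML array 3 held the lowest AML value in 22 and control array 1 the lowest control value in 22.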
